A study of Arabidopsis thaliana with 2 samples.

Results

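The genes described here are 10 Arabidopsis thaliana loci known to be repressed by sugar, some of them linked to slowed growth or dormancy. They are DRM1 (AT1G28330), DRM2 (AT2G33830), BT2 (AT3G48360), KMD1 (AT1G80440), EXL2 (AT5G64260), EXL4 (AT5G09440), BGAL4 (AT5G56870), MIOX2 (AT2G19800), MIOX4 (AT4G26260) and AT3G15450. They were taken by locus from the 27336 loci in the count files. They were selected on their read counts in these same 2 libraries, that is on the contrast of atpip1;2-1 with the wild type, besides what is known of them, so the ratios of its genes are given as a description and were not tested. Their levels were compared between the mutant line atpip1;2-1, which lacks normal amounts of the plasma membrane aquaporin PIP1;2, and the wild type. Both lines are of the Columbia ecotype, with a stock number of their own each, and both were raised on soil in a greenhouse. Each was represented by 1 library from leaves of 10 plants that were 3 weeks old, so there was no replicate and no test of the genotype could be made. Both lines had a 12-hour photoperiod, 24 °C by day and 20 °C at night, and 60% humidity. Light was 70 to 80 µmol per square metre and second, and CO2 was 370 µmol per mol. The mutant line is a single allele, and no second allele was analysed here.

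Plants switch these genes off when sugar is plentiful and on when carbon runs short, as in darkness, in a resting bud or in a starved leaf. The energy-sensing kinase SnRK1 and the bZIP transcription factors that act with it raise many such transcripts, while growth-promoting cytokinin, auxin and brassinosteroid signals act on several of the same genes. In leaves several of their transcripts also follow the daily cycle, being low when photosynthesis supplies sugar.

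The atpip1;2-1 library held 4041759 reads and the wild-type library 4079098. Levels are given in CPM, reads per 1000000 of the library size after scaling by TMM, a method that balances the bulk of genes. A gene counted as tested with at least 20 reads over both libraries, which left 15111 loci, and as higher or lower when its ratio was at least 2-fold and the 95% counting interval of the log2 ratio excluded 0. By this rule 287 loci, or 1.9%, were higher in atpip1;2-1, and 258, or 1.71%, were lower, together 3.61% in either direction. With total counts as library sizes the split was 366 higher and 186 lower. All intervals cover counting error only, and reads without molecular identifiers are not independent molecules. The label check was PIP1;2 itself, with 566 reads in atpip1;2-1 and 4211 in the wild type (log2 ratio -2.95, -3.08 to -2.83). As to the labelled organ, the mesophyll marker RBCS1A had 17918 CPM in atpip1;2-1 and 23128 CPM in the wild type, and the 6 floral and pollen markers together had 5 reads in atpip1;2-1 and 3 in the wild type.

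Of the 10 genes, 8 had enough reads, and 6 of these, DRM2, BT2, KMD1, EXL2, BGAL4 and AT3G15450, were higher by at least 2-fold in atpip1;2-1, where the background over all tested loci was 1.9%. DRM1 and EXL4 had positive log2 ratios under 1, and MIOX2 and MIOX4 had at most 1 read in each library. Summed over the 10 genes there were 2136 reads in atpip1;2-1 and 810 in the wild type, which is 516 against 203 CPM. The median log2 ratio of the 8 counted genes was 1.31, while the median over all 15111 tested loci was -0.00. Nothing is read from these figures about the list, since its genes were chosen with this contrast in view. In RNA from whole leaves, a larger number of cells that express a gene and more RNA per cell cannot be told apart.

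**Figure D1:**
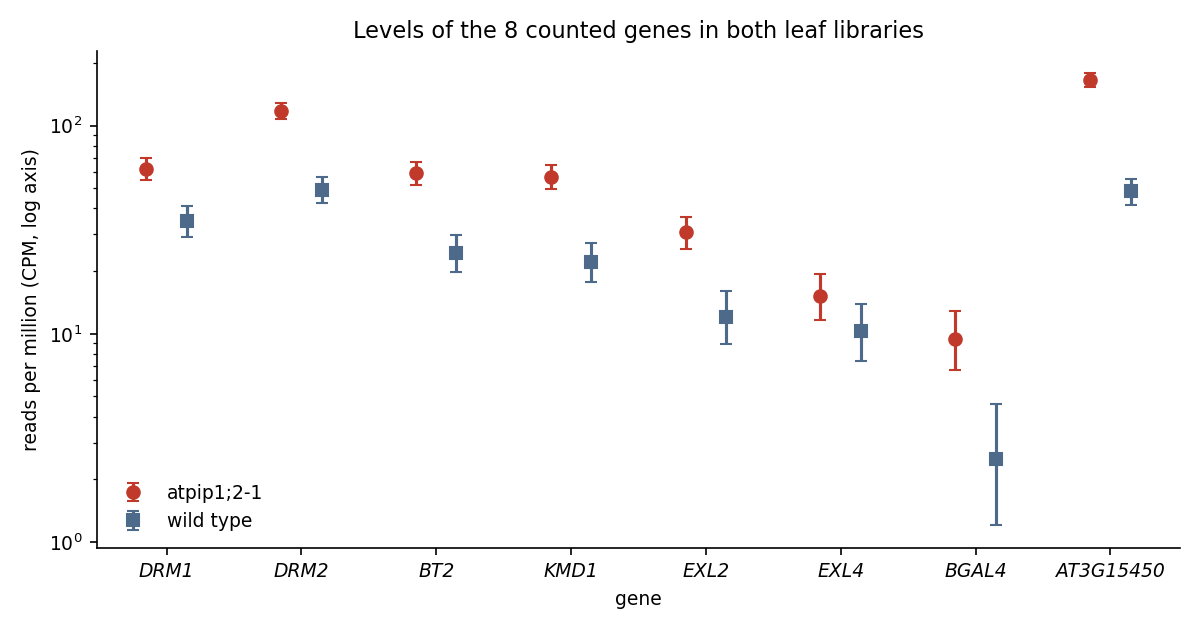
Level of each of the 8 counted genes in CPM on a log axis, with atpip1;2-1 as red circles left of the wild type as blue squares (1 library each), and 95% counting intervals as bars. The intervals of the libraries stand apart for 7 genes and overlap for EXL4, which had 15.2 CPM in atpip1;2-1 and 10.3 CPM in the wild type.

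The dormancy-associated genes DRM1 and DRM2 encode small proteins that mark resting axillary buds, and their transcripts are known to go down when growth resumes. DRM2, on chromosome 2, had 486 reads in atpip1;2-1 and 195 in the wild type, or 117 CPM (107 to 128) and 49.0 CPM (42.3 to 56.4). Its level was 2.40-fold higher (2.02 to 2.84), a log2 ratio of 1.26 (1.02 to 1.51), so that the counting interval as a whole lay above 2-fold. DRM1, on chromosome 1, had 257 reads in atpip1;2-1 and 138 in the wild type. The levels were 62.1 CPM (54.7 to 70.1) in atpip1;2-1 and 34.7 CPM (29.1 to 41.0) in the wild type, which is 1.79-fold, with a log2 ratio of 0.84 (0.54 to 1.15). DRM1 thus missed the 2-fold rule, although the intervals of its levels did not overlap, and its ratio and that of DRM2 had overlapping intervals. The reference annotation names 3 more loci as dormancy/auxin associated family proteins. AT1G56220 had 3257 reads in atpip1;2-1 and 1981 in the wild type (log2 ratio 0.66, 0.58 to 0.74). The other relatives, AT1G54070 and AT5G44300, had 0 reads in both libraries. AT1G56220 was thus the only counted relative, and its log2 ratio was positive, as were 49.8% of those of all tested loci. DRM1 and DRM2 were chosen on this contrast. No agreement within the family and no order between DRM2 and AT1G56220 is therefore read.

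BT2 is a scaffold protein with BTB and TAZ domains that works in the responses of the plant to sugar, nitrogen and hormones and can act as an adaptor of cullin-based ubiquitin ligases. It had 244 reads in atpip1;2-1 and 97 in the wild type, or 58.9 CPM (51.8 to 66.8) against 24.4 CPM (19.8 to 29.7). The ratio was 2.42-fold (1.90 to 3.09), a log2 ratio of 1.27 (0.93 to 1.63). Its family has 5 members in Arabidopsis and all 5 were counted. BT5 had 142 reads in atpip1;2-1 and 49 in the wild type, a log2 ratio of 1.48 (1.00 to 1.98), and was the other family member at least 2-fold higher. BT1 stood at 0.58 (0.02 to 1.15), BT4 at 0.36 (-0.01 to 0.74) and BT3, with 13 and 11 reads, at 0.18 (-1.09 to 1.49). BT2 was chosen on its ratio, so its sign is a description only. The 4 relatives had positive log2 ratios, where 49.8% of tested loci did, and the intervals of 2 lay wholly above 0. Those of BT4 and BT3 included 0, and the ratios of BT1, BT4 and BT3 were under 1.

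KMD1 is a kelch-repeat F-box protein, the part of a ubiquitin ligase that picks its targets. KMD proteins are known to direct the breakdown of type-B response regulators, the transcription factors of cytokinin signalling, and of phenylalanine ammonia-lyase, the entry enzyme of phenylpropanoid synthesis. KMD1 had 235 reads in atpip1;2-1 and 88 in the wild type, or 56.7 CPM (49.7 to 64.5) against 22.1 CPM (17.7 to 27.2). The ratio was 2.57-fold (2.00 to 3.32), a log2 ratio of 1.36 (1.00 to 1.73). The 3 relatives had positive log2 ratios, as had 49.8% of tested loci, and none reached 2-fold. The intervals of 2 lay wholly above 0, beside 1563 of the 15111 tested loci, and that of KMD2 included 0. KMD4, the most read of the family, had 710 reads in atpip1;2-1 and 420 in the wild type (0.70, 0.52 to 0.88), KMD3 had 173 and 101 (0.72, 0.36 to 1.09) and KMD2 had 37 and 23 (0.63, -0.16 to 1.45). The interval of KMD1 lay above that of KMD4 and overlapped those of KMD3 and KMD2, which is a description because KMD1 was chosen on its ratio.

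The transcripts of the KMD targets had mixed ratios. Of the 5 type-B response regulators that were looked up, 0 passed the 2-fold rule with TMM, beside 3.61% of tested loci. Their median log2 ratio was 0.04. ARR1 had 70 reads in atpip1;2-1 and 35 in the wild type (0.94, 0.34 to 1.57) and passed at 1.01 with total counts as library sizes, whereas ARR12 had 55 and 53 reads (-0.00). These counts are of RNA, and KMD proteins act on the regulators as proteins. Type-A response regulators, which cytokinin induces through the type-B factors, were also counted, and any link of their levels to KMD1 was not tested. All 8 counted type-A genes had a negative log2 ratio with TMM, where 50.2% of tested loci did, and the median was -0.53. The counting intervals of 4 of the 8 lay wholly below 0, beside 1988 of the 15111 tested loci. With total counts, totals without organelle and abundant genes, or DESeq2 factors 7 of 8 were negative, ARR16 (101 and 98 reads) being the exception. ARR6 was at least 2-fold lower, with 28 reads in atpip1;2-1 and 75 in the wild type (-1.48, -2.16 to -0.83), against a background of 1.71%. The most read, ARR4, had 561 reads in atpip1;2-1 and 774 in the wild type (-0.52, -0.68 to -0.36). Of the 4 phenylalanine ammonia-lyase genes 0 passed in either direction, beside 3.61% of tested loci. PAL1 had 238 reads in atpip1;2-1 and 300 in the wild type (-0.39) and PAL2 had 333 and 368 reads (-0.20).

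EXL2 and EXL4 belong to the EXORDIUM family of cell wall proteins, in which EXO promotes cell expansion in response to brassinosteroid and EXL1 is needed for growth when carbon is scarce. EXL2 had 127 reads in atpip1;2-1 and 48 in the wild type, or 30.7 CPM (25.6 to 36.5) against 12.1 CPM (8.89 to 16.0). Its level was 2.54-fold higher (1.81 to 3.62), a log2 ratio of 1.35 (0.86 to 1.86). EXL4 had 63 reads in atpip1;2-1 and 41 in the wild type, or 15.2 CPM (11.7 to 19.5) against 10.3 CPM (7.39 to 14.0). Its log2 ratio of 0.56 had a counting interval from -0.03 to 1.17, so no difference was detectable at this depth with TMM. In total counts the interval ran from 0.04 to 1.24. The remaining 5 counted relatives lay near or below 0. EXO had 101 reads in atpip1;2-1 and 93 in the wild type (0.06), EXL3 503 and 518 (-0.10), EXL5 83 and 106 (-0.41), EXL7 23 and 24 (-0.12) and EXL1 16 and 15 (0.04, -1.07 to 1.15). The interval of EXL2 lay above those of EXO, EXL3, EXL5 and EXL7, which is a description because EXL2 was picked for its ratio. EXL6 had 0 reads in both libraries.

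BGAL4 encodes a beta-galactosidase, an enzyme class that trims galactose from cell wall polysaccharides and glycoproteins. It was the least read of the 8 counted genes, with 39 reads in atpip1;2-1 and 10 in the wild type, or 9.42 CPM (6.70 to 12.9) against 2.51 CPM (1.20 to 4.62). Its ratio was also the largest of the 8, at 3.75-fold, but the interval was wide (1.84 to 8.42; log2 ratio 1.91, 0.88 to 3.07). Of the 10 other counted BGAL genes 0 passed the 2-fold rule in either direction, beside 3.61% of tested loci. BGAL1, the most read, had 1236 reads in atpip1;2-1 and 772 in the wild type (0.62, 0.49 to 0.75), and BGAL6 had 317 and 216 (0.50, 0.24 to 0.75). BGAL3 lay on the other side, with 200 reads in atpip1;2-1 and 352 in the wild type (-0.87, -1.13 to -0.62), and BGAL2 had 165 and 161 (-0.02). The family thus held genes with intervals wholly above 0 and genes with intervals wholly below it.

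MIOX2 and MIOX4 encode inositol oxygenases, which open the ring of myo-inositol to give glucuronic acid, a precursor of cell wall sugars. MIOX2 had 1 read in atpip1;2-1 and 1 in the wild type, and MIOX4 had 0 reads in both. For MIOX4 a count of 0 allows up to 3 reads, that is 0.724 CPM in atpip1;2-1 and 0.754 CPM in the wild type. The single read of MIOX2 allows up to 1.35 CPM in atpip1;2-1 and 1.40 CPM in the wild type, the upper ends of the 95% Poisson intervals. No ratio is given for either gene. In this family only MIOX1 was counted, with 35 reads in atpip1;2-1 and 27 in the wild type (log2 ratio 0.32, -0.45 to 1.10), while MIOX5 had 0 reads in both. Among the 11 counted genes that make inositol or carry glucuronate and UDP-glucose towards UDP-glucuronate, the median log2 ratio was -0.30. Of these 7 were negative and 4 positive, beside 50.2% and 49.8% of tested loci. UGD1, a UDP-glucose dehydrogenase, was 2-fold lower, beside 1.71% of tested loci, with 15 reads in atpip1;2-1 and 30 in the wild type (-1.06, -2.06 to -0.12). This call was removed by total counts (-0.99), by totals without organelle and abundant genes, and by an exact binomial test adjusted over all tested loci. MIPS1, the most read inositol phosphate synthase gene, had 461 reads in atpip1;2-1 and 620 in the wild type (-0.48, -0.66 to -0.31).

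AT3G15450 is annotated as an aluminium-induced protein with YGL and LRDR motifs, a class of proteins whose function is not well known. With 684 reads in atpip1;2-1 and 192 in the wild type it was the most read of the 10 genes in the mutant library. Its level was 165 CPM (153 to 178) in the mutant and 48.2 CPM (41.6 to 55.6) in the wild type, a ratio of 3.42-fold (2.91 to 4.04) and a log2 ratio of 1.78 (1.54 to 2.01). The same annotation is carried by 4 relatives. AT4G27450 had 219 reads in atpip1;2-1 and 68 in the wild type, a log2 ratio of 1.63 (1.23 to 2.04), and its interval overlapped that of AT3G15450. AILP1, with 2418 reads in atpip1;2-1 and 1432 in the wild type, stood at 0.70 (0.60 to 0.79). AT5G43830, with 374 and 368 reads (-0.03), and AT3G22850, with 97 and 85 (0.13), had intervals that included 0. The family therefore ran from about no difference to more than 3-fold.

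**Figure D2:**
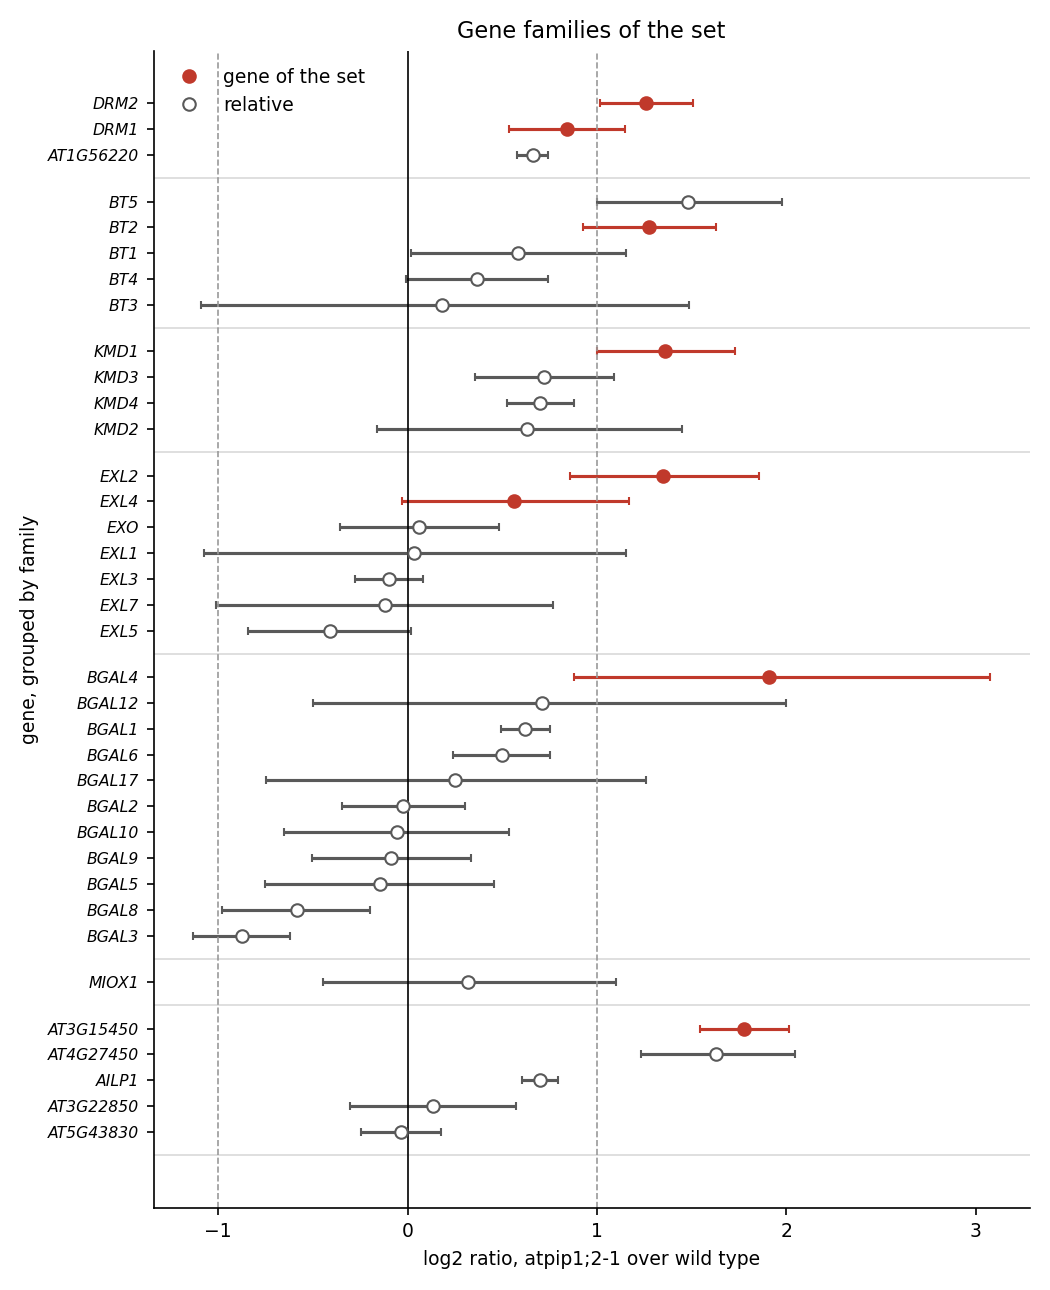
Log2 ratio of atpip1;2-1 over wild type with its 95% counting interval for every counted gene in the families of the set, genes of the set as filled red circles and relatives as open circles (1 library per genotype), with dashed lines at 2-fold. BT5 at 1.48 and AT4G27450 at 1.63 are the relatives beyond 2-fold, and BGAL3 at -0.87 is the lowest.

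Across all 7 families there were 38 relatives outside the set, of which 28 were counted. At least 2-fold higher were 2 of these, BT5 and AT4G27450, and 0 were lower, beside 1.9% and 1.71% of all tested loci. Their median log2 ratio was 0.22, with 18 positive and 10 negative, beside 49.8% and 50.2% of tested loci. The relatives were taken as whole families, but their values come from the same contrast that chose the set.

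Among the 8 counted genes the order of log2 ratios ran from BGAL4 at 1.91 and AT3G15450 at 1.78 through KMD1, EXL2, BT2 and DRM2 between 1.36 and 1.26 to DRM1 at 0.84 and EXL4 at 0.56. The intervals of neighbours in this order overlapped. AT3G15450 lay above DRM2, DRM1 and EXL4 with no overlap of intervals. AT3G15450 had a ratio above that of 99.7% of all tested loci, BGAL4 above 99.8%, DRM2 above 98.9%, DRM1 above 96.1% and EXL4 above 90.5%. These ranks are a description only, because the genes were chosen on the same ratios. The plot of all counted genes shows that ratios scatter more at low read numbers, where BGAL4 lies, than at the levels of DRM2 and AT3G15450.

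**Figure D3:**
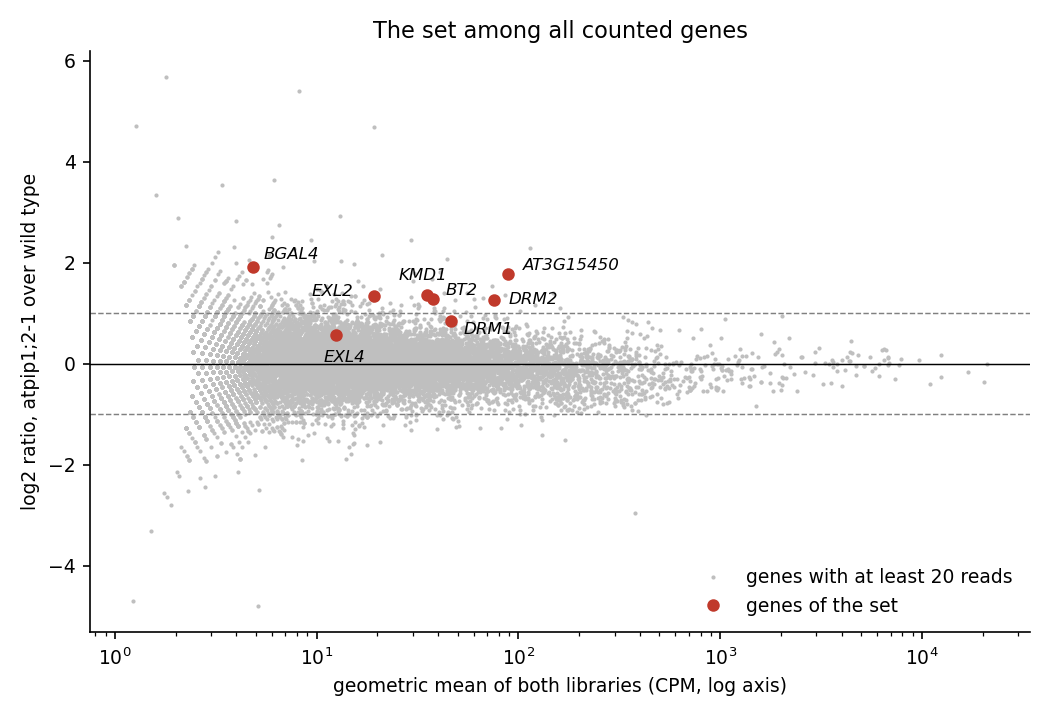
Log2 ratio of atpip1;2-1 over wild type against the geometric mean level in CPM (log axis) for the tested loci with a read in both libraries (grey) and the 8 counted genes of the set (red), with dashed lines at 2-fold. BGAL4 at 1.91 sits where grey points scatter widely, whereas AT3G15450 at 1.78 sits where they scatter less.

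The genes are spread over all 5 chromosomes. Of the 20 protein-coding loci next to them in the TAIR10.1 annotation, 11 were counted and 0 were 2-fold higher or lower, beside 3.61% of tested loci. The median log2 ratio of these neighbours was 0.03, with a range from -0.86 to 0.68. BGAL4 overlaps AT5G56880 on the opposite strand by 909 bases, but that locus had 0 reads in both libraries. AT3G15450 overlaps AT3G15460 on the opposite strand by 41 bases, and AT3G15460 had 23 reads in atpip1;2-1 and 36 in the wild type. No source used here says whether counting took account of strand, so reads in such overlaps cannot be assigned. The last 500 bases of the longest transcript of each gene were searched in the TAIR10.1 genome for further copies of at least 50 bases and 90% identity. There were 0 for every gene except MIOX2, which had 1 outside annotated genes.

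Sequences before the genes are shown because a short element, TTATCC, is known as a sugar-repressive element in genes that go down when Arabidopsis buds grow out. It was searched on both strands in the 500 bases before the annotated start of each gene (RefSeq annotation and sequence of TAIR10.1, which is not the TAIR9 build of the counts). It was found in 5 of the 10 genes, DRM2, BT2, EXL4, MIOX4 and AT3G15450, and in 22.5% of 27443 windows of the same length before protein-coding genes. The match nearest to the start of each gene is printed below on the strand of that gene, from 5′ to 3′, with the element in capitals (GGATAA is the same element on the other strand).
DRM2, first letter of the element 127 bases before the start, chromosome 2: aagtaggcTTATCCacatccta
BT2, 8 bases before the start, chromosome 3: tcatctctTTATCCac
EXL4, 101 bases before the start, chromosome 5: ggaagtgtTTATCCctgtcgca
MIOX4, 36 bases before the start, chromosome 4: cctggtttGGATAAatataaaa
AT3G15450, 90 bases before the start, chromosome 3: aaagaaacGGATAAgaacacgt

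The genes with a match ranged from MIOX4, which had 0 reads, and EXL4, which holds 3 copies and had the smallest ratio of the 8 counted genes, to AT3G15450. KMD1, EXL2 and BGAL4, which were at least 2-fold higher, and DRM1 had no match in this window. The evening element AAAATATCT of clock-controlled genes, searched in the same way, was found before MIOX4 and AT3G15450 and in 4.44% of all windows. In AT3G15450 it occurred at 2 places, of which the nearer is printed here on the strand of the gene.
AT3G15450, 348 bases before the start, chromosome 3: gtattaatAAAATATCTcatatatt
The element Up2, AAACCCTA, of genes that go up in growing buds was found before BT2 and in 7.51% of windows. The G-box CACGTG, which bZIP factors bind, was found in 0 of the 10 genes and in 9.35% of windows. A match is a run of letters and was not tested as a binding site.

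Other genes known to be repressed by sugar or induced by darkness were mostly on the same side as the set. Of 15 counted genes in this list 3 were at least 2-fold higher and 0 lower, beside 1.9% and 1.71% of tested loci. In it 14 had a positive log2 ratio with TMM, where 49.8% of tested loci did, and 13 with reference genes as the measure of library size. The median was 0.70. The counting intervals of 6 of the 15 lay wholly above 0, beside 1563 of the 15111 tested loci, and those of the others included 0. SEN1, a dark-inducible gene, had 70 reads in atpip1;2-1 and 14 in the wild type (2.26, 1.42 to 3.21). AKINBETA1, a regulatory subunit of SnRK1, had 198 reads in atpip1;2-1 and 86 in the wild type (1.15, 0.77 to 1.53). DIN10, annotated as a raffinose synthase, had 327 and 154 reads (1.03, 0.75 to 1.32), and with library sizes from reference genes its log2 ratio of 0.98 missed the rule. Among genes that sugar induces, 5 were counted and 0 passed the 2-fold rule, beside 3.61% of tested loci, with a median of -0.69. With TMM 4 were negative, beside 50.2% of tested loci, and without organelle and abundant genes 3, BAM5 being the one that changed side. CHS, the chalcone synthase that starts flavonoid synthesis, had 544 reads in atpip1;2-1 and 841 in the wild type (-0.69, -0.84 to -0.53). BAM5, a beta-amylase, had 194 reads in atpip1;2-1 and 196 in the wild type (-0.07). Both lists were put together with earlier results of these libraries known.

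**Figure D4:**
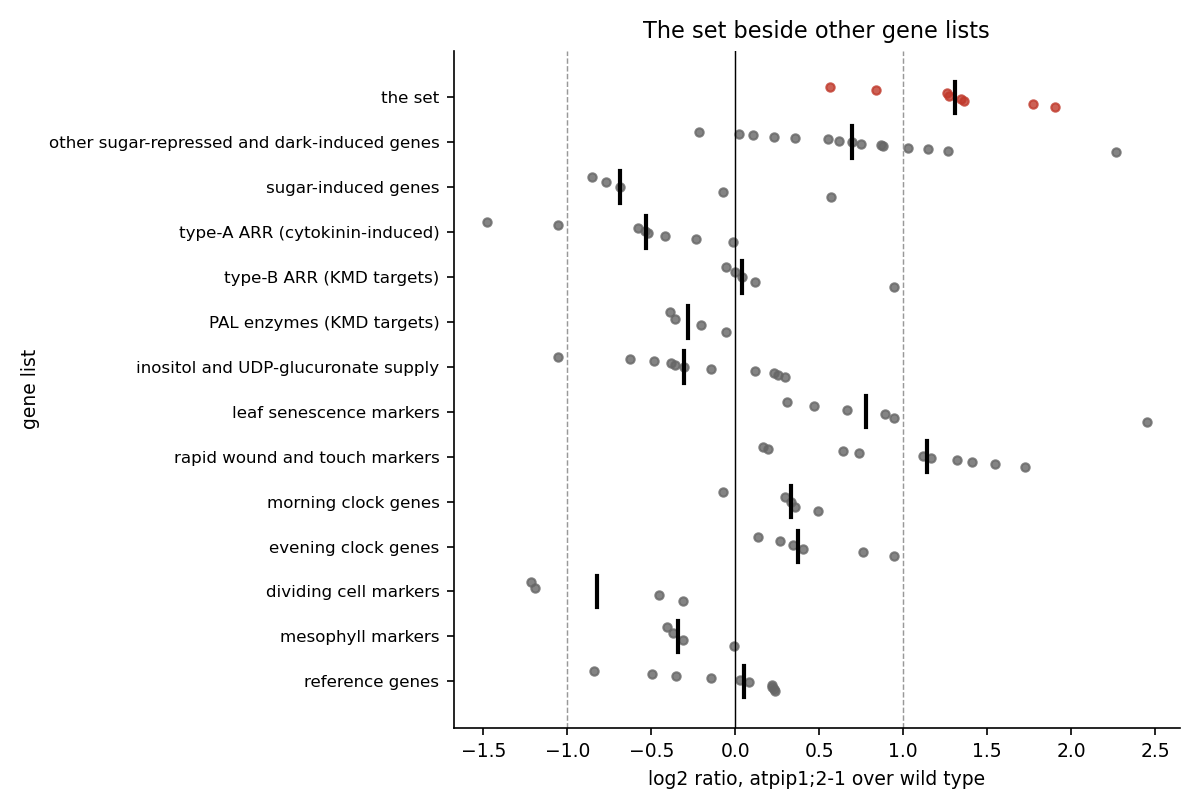
Log2 ratio of atpip1;2-1 over wild type for each counted gene (points) and the median (black bar) of the set and of 13 other lists, 1 library per genotype, with dashed lines at 2-fold. The set has a median of 1.31, the other sugar-repressed genes of 0.70, the rapid wound and touch markers of 1.14 and the type-A response regulators of -0.53.

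Several other marker lists also had positive medians, and their part in its ratios was not tested. Rapid wound and touch markers had a median of 1.14, with 6 of 10 at least 2-fold higher (1.9% of tested loci) and all 10 positive (49.8% of tested loci). Among those 2-fold higher were ERF6 (31 reads in atpip1;2-1 and 9 in the wild type), ERF1A (79 and 26), ERF105 (47 and 17) and WRKY33 (192 and 74). The touch genes did not pass, with TCH3 at 0.64 (0.53 to 0.75), TCH4 at 0.20 (-0.20 to 0.60) and TCH2 at 0.17 (-0.11 to 0.44). The summed level of the list was 763 CPM in atpip1;2-1 and 462 CPM in the wild type. Leaf senescence markers had a median of 0.78 over 6 counted genes, with NAP, a senescence transcription factor, at 91 reads in atpip1;2-1 and 16 in the wild type (2.45, 1.67 to 3.32), a summed level of 232 against 129 CPM, and the late marker SAG12 at 0 reads in both. The hour of harvest is not stated in the labels. Morning clock genes had a median of 0.33, with LHY at 293 reads in atpip1;2-1 and 224 in the wild type and RVE8 at 186 and 188. Evening clock genes had a median of 0.37, with ELF4 at 96 and 84 reads and LUX at 99 and 72. The morning and the evening list came to 189 and 98.5 CPM in atpip1;2-1 and to 161 and 74.6 CPM in the wild type. None of these 11 clock genes passed the 2-fold rule with TMM, beside 3.61% of tested loci, and PRR5 (0.94, 0.28 to 1.64) passed at 1.01 with total counts.

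The marker lists of mesophyll, guard cells and phloem companion cells held 0 genes beyond 2-fold, where 3.61% of all tested loci were. The 4 mesophyll markers summed to 48307 CPM in atpip1;2-1 and 56122 CPM in the wild type. Their median log2 ratio was -0.34. The counting intervals of 3 lay wholly below 0, beside 1988 of the 15111 tested loci, CAB1 at 20970 and 21077 CPM being the exception. At such read numbers the intervals are narrow. Over the 1067 genes with at least 1000 reads the middle 95% of log2 ratios ran from -0.84 to 0.62, a range that holds all 4 markers. The 2 phloem companion cell markers summed to 229 and 254 CPM, with SUC2 at 695 and 748 reads and AHA3 at 252 and 262 reads. The 5 guard cell markers summed to 150 and 202 CPM, with AT1G22690 at 466 and 637 reads and FAMA at 63 reads in each. Of 4 counted markers of dividing cells 2 were at least 2-fold lower, beside 1.71% of tested loci, namely CYCD3;1 with 15 reads in atpip1;2-1 and 33 in the wild type (-1.19, -2.18 to -0.27) and KNOLLE with 13 and 29 reads (-1.21, -2.28 to -0.23). This list summed to 24.9 CPM in atpip1;2-1 and 39.4 CPM in the wild type, and both calls were lost when the reads were compared by an exact binomial test adjusted over all tested loci. The 3 root markers had 16 reads in atpip1;2-1 and 11 in the wild type, nearly all from PYK10 (15 and 10), with EXPA7 at 0 in both. The 10 counted reference genes had a median of 0.05 with 0 beyond 2-fold, beside 3.61% of tested loci. Among them UBQ10 had 1549 CPM in atpip1;2-1 and 1333 CPM in the wild type (0.22) and AT5G60390, an elongation factor gene, 1122 and 2006 CPM (-0.84).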

How the data were processed

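RNA was measured in leaves of atpip1;2-1 and wild-type plants, 1 library of pooled plants each. Per the labels' protocols, cDNA libraries of transcript 3' ends were built and sequenced on an Illumina Genome Analyzer II by a company, and per the submitters' processing notes the build was TAIR9. Aligner, counter and strand setting are not given in the sources used. The authors deposited whole-number read counts for each locus, 1 genotype per file, and the values show no normalization. Of 27337 rows 1 locus was repeated with the same value and kept once.

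TMM factors (1.02 for atpip1;2-1 and 0.976 for the wild type) came from edgeR 4.0.16 in R 4.3.3, with DESeq2 1.42.0 factors as an alternative. With 1 library per genotype edgeR's quasi-likelihood fit was not possible. Level intervals are exact Poisson and ratio intervals Clopper-Pearson, both at 95%, computed in Python 3.11.15 with scipy 1.17.1. The code for ratio intervals and calls was tried on simulated binomial counts, which hold no spread between plants or libraries. The Poisson intervals were not tried in this way. Further alternatives changed the library sizes (total counts, 11 reference genes of which those with at least 20 reads entered, or totals that leave out organelle loci and the top 20 genes), thinned the larger library, and changed the read minimum or the fold. An adjusted exact binomial comparison was added after the data had been seen. The members and all gene lists were chosen with earlier results of these data known. Named are the 10 genes, PIP1;2, counted relatives (in the BGAL family the most read), and in other lists up to 4 genes past the rule, largest fold first, or else the 2 most read. ARR4, ARR16, MIPS1, PRR5, SAG12, EXPA7, PYK10, TCH2, TCH3 and TCH4, and the unread relatives, were named after their values had been seen. With 2 libraries a pattern is a single ratio, so no gene was named for likeness. Symbols are from RefSeq (26604 loci matched).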

Additional observations from a re-analysis of the deposited data

How the results depend on the processing

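The 6 genes DRM2, BT2, KMD1, EXL2, BGAL4 and AT3G15450 stayed at least 2-fold higher in atpip1;2-1 under all 4 other library sizes and with the deeper library thinned. The same held with 1 read as the minimum and with the adjusted exact binomial comparison. The genes were chosen on this contrast, so this shows only how the calls depend on the settings. The binomial comparison covers counting error between 1 library per genotype and is no test of the genotype. With at least 100 reads 5 remained, since BGAL4 had 49 reads. At least 1.5-fold higher were 7 and at least 3-fold 2, BGAL4 and AT3G15450. Over the library sizes and the thinning DRM1 ran from 0.79 to 0.91 and EXL4 from 0.51 to 0.63. Over all loci, at least 100 reads gave 97 higher and 80 lower, a 1.5-fold limit 807 and 896, a 3-fold limit 82 and 48, and the adjusted comparison 197 and 166. With reference genes as the scale 243 were higher and 318 lower. No paired analysis was possible because there was 1 library per genotype. Spread between plants was not measured, and depth limits BGAL4, EXL4 and both MIOX genes most.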
